A study of Mus musculus with 5 samples.

Results

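The Ago sites that lie in introns alone were described in mouse liver at 5 stages. The members were the entries of the 5 interaction tables whose listed region was intron and nothing else, without the entries of miR-122-5p. Wherever 5 values are listed they run by age, from e12.5 through e15.5, e18.5 and P7 to Adult. The members numbered 199387 of 1250128 entries, 37679 of 393130, 36872 of 390768, 93120 of 761121 and 54764 of 459112. Entries that share a stretch of reads were joined into clusters, and a cluster was called intron-only when every one of its entries was. There were 43590, 9669, 9341, 16855 and 11124 such clusters, among 208182, 81113, 76900, 124780 and 81048 clusters of all regions. Of these, 8, 1, 4, 4 and 2 lay over annotated miRNA genes and were kept separate, which left 43582, 9668, 9337, 16851 and 11122 intron-only clusters for all values below unless stated.

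Ago HITS-CLIP links RNA to Argonaute proteins with ultraviolet light, and reads by sequencing what an antibody against Ago brings down. Livers of C57BL/6 (C57BL/6J in the methods) embryos, of pups 7 days after birth (P7) and of adult mice were exposed 3 times to light of 254 nm (0.2 J/cm2). Ago2 antibodies were used at every stage, and an Ago1 antibody was added for P7 and Adult only, so that antibody and age after birth cannot be told apart. Each stage is 1 library in the labels, so no difference between stages was tested, and each interval given here covers counting error only, because amplified reads are not independent molecules. The linker carries a barcode, and whether it was used to count molecules is not stated. Fetal liver is a blood-forming organ and adult liver is not, and whole tissue was used.

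In the cytoplasm Ago carries a miRNA whose seed, the bases near its 5′ end, pairs with target RNA, mostly in the 3′UTRs of mature mRNAs. Introns are removed in the nucleus before export, so intronic RNA meets Ago only where unspliced RNA or excised introns do, or where Ago is nuclear. Introns also hold miRNA genes, other small RNA genes and many repeats, and reads of such RNAs can be listed under the gene around them.

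The sequences below are shown because they carry the largest read numbers and the sites that recurred. The mature miRNAs are from RefSeq (GRCm38.p6), with the seed, bases 2 to 8, in capitals.
miR-142a-3p: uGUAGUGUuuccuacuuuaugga
miR-16-5p: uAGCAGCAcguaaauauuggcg
miR-451a: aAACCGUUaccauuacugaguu
miR-92a-3p: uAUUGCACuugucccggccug
miR-26a-5p: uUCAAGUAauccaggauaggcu
let-7c-5p: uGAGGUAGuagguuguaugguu

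The first set of intronic sequences, read from GRCm38 on the strand of the cluster, holds a stretch of the miRNA itself rather than of its complement, and capitals mark the bases identical to the miRNA. The stretch in 4930593A02Rik (chr3:58751767-58751796, plus strand) is 16 bases of miR-142a-3p, bases 2 to 17. That in Eif2a (chr3:58553404-58553433, plus strand) is also 16 bases, 1 to 16. That in Tns3 (chr11:8493670-8493699, minus strand) is 13 bases, and that in Hoxa3 (chr6:52196759-52196788, minus strand) is identical to miR-16-5p at 15 of 16 bases.
4930593A02Rik: aaacatgGTAGTGTTTCCTACTTattgcct
Eif2a: gggattgTGTAGTGTTTCCTACTatagact
Tns3: gtgtgtgtgTGTAGTGTTTCCTtcatgggt
Hoxa3: gagggaaTAGCAGCAgGTAAATAggcatag

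The second set holds complete 8mer sites, in which capitals mark the complement of the seed followed by an A. Picalm (chr7:90139662-90139691, plus), Sox6 (chr7:115622001-115622030, minus), Atf1 (chr15:100255415-100255444, plus) and Slc22a23 (chr13:34318953-34318982, minus) each hold that of miR-451a. Zzef1 (chr11:72836240-72836269, plus) holds that of miR-92a-3p, Afp (chr5:90492564-90492593, plus) that of miR-26a-5p and Ermap (chr4:119186500-119186529, minus) that of let-7c-5p.
Picalm: ttaagttgagagagaattttgtAACGGTTA
Sox6: actacactgctcaggtgacactAACGGTTA
Atf1: ttaggggctggagagataatttAACGGTTA
Slc22a23: attctatcaactttgctgtggtAACGGTTA
Zzef1: tggtattacagatgtgctactaGTGCAATA
Afp: cagatcagagcagaggaagctgTACTTGAA
Ermap: gtgtttttttagaaaagtcagtCTACCTCA

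Intron-only clusters made up the largest share of all clusters at e12.5. The share by age was 20.9% (Wilson 95% interval 20.8 to 21.1%), 11.9% (11.7 to 12.1%), 12.1% (11.9 to 12.4%), 13.5% (13.3 to 13.7%) and 13.7% (13.5 to 13.96%). The 4 later libraries lay close together, and e12.5 stood above all of them. The paper's supplement lists more total reads for e12.5 than for the later stages, apart from a further e18.5 library. Whether depth bears on this share was not tested. The tables of the 3 embryonic stages each hold 2 lists of clusters, which the labels do not describe. In the separate lists the e12.5 share was 25.1% and 17.7%, that of e15.5 was 11.8% and 11.6%, and that of e18.5 was 13.1% and 9.07%, so that both lists of e12.5 remained above all other lists. Clusters found in both lists made up 4.61%, 3.72% and 6.27% of the intron-only clusters of the 3 embryonic stages, against 13.7%, 6.00% and 13.5% of the 3′UTR clusters.

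By reads, introns held less. The read number is the highest read number listed for a cluster, added over both lists where an embryonic cluster is in both, at least 5 and not scaled to library size. The header of this column refers to the peak in 4 tables and, in the e12.5 table, to the miRNA target, and both were assumed to be one measure. Summed over clusters, intron-only clusters held 5.51%, 3.53%, 3.62%, 2.38% and 1.51% of the read numbers, where 3′UTR clusters held 12.6%, 15.6%, 16.2%, 8.76% and 2.72%. The median of the intron-only clusters was 25, 22, 15, 12 and 17 reads. The embryonic tables each hold 2 lists, whose medians, from the youngest stage on, were 71 and 18, 63.5 and 18, and 24 and 7 reads, so no order by age is read from the joined medians. A few clusters were far above that. Those with more than 1000 reads numbered 83, 43, 31, 32 and 24, and the 100 clusters with the most reads held 22.2%, 40.4%, 36.3%, 33.4% and 40.9% of all intron-only read numbers. The 3′UTR reads were concentrated too. There, clusters spanning 100 bases or more, 339, 77, 35, 95 and 76 of them, held 52.0%, 51.2%, 56.0%, 44.6% and 17.1% of the 3′UTR read numbers. Intron-only clusters of that width held 1.95%, 1.34%, 2.15%, 3.85% and 3.69% of the intron-only read numbers.

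**Figure D1:**
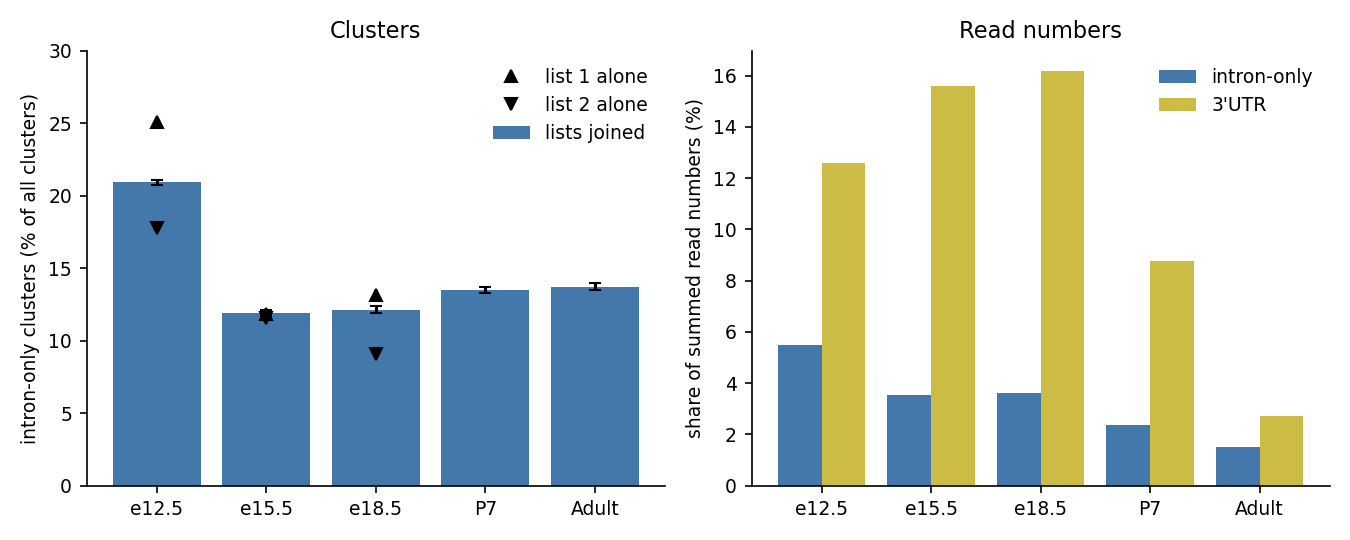
Left, share of all clusters that were intron-only in each of the 5 libraries, in percent, with Wilson 95% intervals, and the same share in the separate lists of the embryonic tables (triangles). Right, share of the summed read numbers, in percent, held by intron-only and by 3′UTR clusters; the bar of e12.5 was highest for intron-only clusters on both sides, 20.9% and 5.51%.

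The listed positions were set against the gene annotation of the reference. The rule used region labels that the authors assigned from UCSC refGene and Ensembl, so lying in a gene follows largely from the label. Between 99.8% and 100% of intron-only clusters lay in a gene on the same strand. In the reference annotation 2.91%, 4.49%, 3.97%, 4.35% and 4.32% overlapped an exon of some transcript, so the word intron in the tables depends on the annotation for these. The introns were long, with medians of 25880, 16631, 15797, 12554 and 12818 bases, where the median over the 286226 introns of the annotation was 1479 bases. Longer introns offer more sequence, and cluster numbers were not corrected for it here. Only 0.41% to 0.66% of intron-only clusters were in introns of 150 bases or less, the size at which a whole intron can be a miRNA hairpin (mirtron), and such introns made up 8.99% of the annotation. Clusters within 100 bases of an intron end made up 4.32%, 6.57%, 7.41%, 8.62% and 8.35%. At every stage more of them were near the 5′ splice site (2.60%, 3.90%, 4.43%, 5.64% and 5.44%) than near the 3′ splice site (2.12%, 3.19%, 3.56%, 3.67% and 3.45%).

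Compared with the 3′UTR clusters of the same library, intron-only clusters had fewer reads, fewer strong seed sites and far lower conservation. The differences were taken within each library and tested over the 5 libraries with a two-sided exact sign-flip permutation test. With 5 pairs its smallest p is 0.0625, so it cannot pass 0.05, and 15 measures were compared. The mean conservation score of the sites, which runs from 0 to 1, was 0.136, 0.153, 0.139, 0.129 and 0.133 in introns and 0.462, 0.507, 0.464, 0.436 and 0.451 in 3′UTRs. The 2 sets did not overlap, and the difference was -0.326 ± 0.017 (SD, n = 5 libraries; exact p = 0.0625). Clusters with a site scoring above 0.5 made up 13.3% to 14.9% in introns and 52.4% to 58.4% in 3′UTRs, a spread within each set that was small beside the gap between them.

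Clusters with an 8mer, the longest seed match listed, made up 19.4%, 18.53%, 17.7%, 24.996% and 21.4% of intron-only clusters and 29.4%, 25.6%, 25.6%, 29.3% and 25.3% of 3′UTR clusters (difference -6.66 ± 2.55 percentage points, SD, n = 5; lower in 5 of 5 libraries, exact p = 0.0625). The median cluster had 3 to 4 sites in introns and 4 to 5 in 3′UTRs, and over single sites the shares of the seed types were closer. Of all intron-only sites, 6.59%, 7.69%, 7.29%, 7.46% and 7.29% were 8mers, where 7.39%, 8.01%, 8.29%, 7.49% and 7.55% were in 3′UTRs. The 6mers made up 53.5% to 55.5% and 52.6% to 54.1%. The share of 8mers over single sites was also lower in introns in 5 of 5 libraries, by less than over clusters.

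The median read number differed by -8.8 ± 4.92 reads (SD, n = 5; 12 to 25 in introns, 15 to 37 in 3′UTRs; exact p = 0.0625). Sites of the 20 most abundant seed families of a library were in 13.0%, 22.5%, 17.5%, 20.6% and 21.7% of intron-only clusters, and in 21.5%, 25.5%, 25.3%, 23.1% and 25.4% of 3′UTR clusters (difference -5.09 ± 2.80 percentage points; exact p = 0.0625). The e12.5 introns were lowest. Repeats made up 13.1% to 14.1% of intron-only and 3.90% to 5.37% of 3′UTR clusters (difference 8.77 ± 0.54 percentage points; exact p = 0.0625). The G and C content did not differ in a common direction (difference 0.05 ± 0.95 percentage points; exact p = 0.938).

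**Figure D2:**
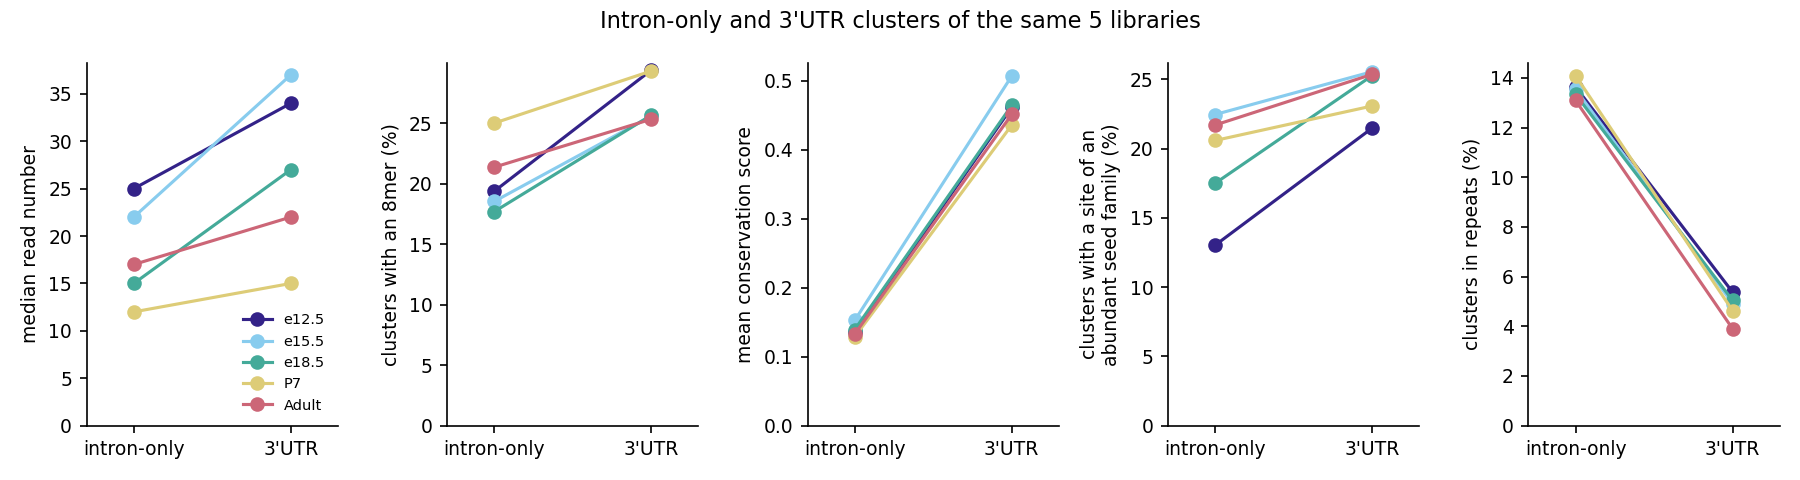
Median read number, share of clusters with an 8mer, mean conservation score, share with a site of the 20 most abundant seed families, and share in repeats, for intron-only and 3′UTR clusters, with 1 point and line per library and axes from 0. All 5 lines rise toward the 3′UTR in the 4 panels on the left, and all 5 fall in the repeat panel.

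Intronic miRNA genes contributed little. The clusters over them held, summed by library, 723, 1355, 2744, 195 and 2499 reads. Gm24270, in Peak1, had 1355 reads at e15.5 and 806 and 1876 in 2 clusters at e18.5. Gm23388, in Zfp791, had 2488 reads in Adult. Snord43, in the ribosomal protein gene Rpl3, has the name of a small nucleolar RNA and was counted by the annotation as a miRNA gene. It had no cluster at e15.5, and 208, 52, 89 and 11 reads at the other stages by age. Mir6353, in Pid1, had 10 reads at e18.5 and 67 at P7, and Mir721, in Cux1, and Mir12193, in Arl2, had 151 and 133 reads at e12.5. Mir6972, in the complement gene Cfb, and Mir12184, in Gpld1, had 21 and 18 reads at P7. Apart from Snord43, no named miRNA gene had a cluster in more than 2 libraries.

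A much larger part of the reads came from intronic clusters that hold a piece of an abundant miRNA's own sequence outside any miRNA gene. A stretch was counted when the cluster, extended by 15 bases on either side, held on its own strand at least 12 consecutive bases of 1 of the 100 most abundant miRNAs of that library, or at least 15 bases with at most 1 mismatch. Such clusters numbered 667, 292, 299, 453 and 393, or 1.53%, 3.02%, 3.202%, 2.69% and 3.53% of intron-only clusters. The same search on the other strand, which gives the background, found 170, 52, 31, 92 and 63, and on the strand of the 3′UTR clusters it found 0.50%, 0.40%, 0.43%, 0.41% and 0.45%. By reads these clusters held 14.1%, 25.6%, 19.99%, 19.7% and 30.3% of the intron-only total, while those found on the other strand held 0.26% to 0.73%.

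At the 3 embryonic stages most of these reads lay on pieces of miR-142a-3p, a miRNA of blood cells. Clusters with at least 12 of its bases numbered 60, 40, 32, 30 and 27, and held 279785, 119759, 65704, 31385 and 39632 reads, or 11.4%, 20.6%, 13.96%, 7.98% and 10.6% of the intron-only total. The number that the tables attach to miR-142a-3p, taken here as its read count, made up 32.2%, 37.1%, 23.9%, 8.88% and 4.34% of all miRNA numbers in the same libraries. Clusters with pieces of miR-122-5p, whose own sites were left out of the members, held 5143, 5389, 11492, 18019 and 41186 reads, or 0.21%, 0.93%, 2.44%, 4.58% and 10.98% of the intron-only total, a larger share at each stage than at the one before. Whether reads of the miRNAs themselves were placed on these introns was not tested.

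Clusters with 1000 reads or more held a miRNA-like stretch more often than the others in each library. Of intron-only clusters with 5 to 19 reads, 1017 of 47739 held a stretch, and of those with 20 to 99 reads, 721 of 34340 did. Of those with at least 100 and under 1000 reads, 290 of 8268 did, and of those with 1000 reads or more, 76 of 213, which was 27.7% in the library with the lowest share. These counts are summed over the 5 libraries, so a region found in several libraries is counted in each. Below 1000 reads the libraries differed. At e12.5 the share was 1.76%, 1.21% and 1.51% from the lowest to the third range of reads, with no rise, where in Adult it was 3.18%, 2.96% and 24.02%. Clusters with a stretch had a median of 21, 30, 27, 15 and 18 reads, where the rest had 25, 21, 14, 12 and 17. On the other strand, 1 of the 213 did, and among the 416 3′UTR clusters with 1000 reads or more, 4 did.

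Recurring regions held a stretch more often than others, though most of them held none. Overlapping intron-only clusters of the 5 libraries were joined into 82170 regions, of which 76630 were listed in 1 library, 3805 in 2, 1001 in 3, 477 in 4 and 257 in all 5. Regions in 2 or more libraries made up 6.74% (5540) in introns and 26.9% (21877 of 81450) in 3′UTRs, and regions in all 5 made up 0.313% and 1.34%. The share with a miRNA-like stretch rose with the number of libraries, from 1.03% of regions in 1 library (Wilson interval 0.96 to 1.11%) to 5.57% in 2, 9.99% in 3, 18.7% in 4 and 26.5% in all 5 (68 of 257, 21.4 to 32.2%). On the other strand it was 0.43%, 0.55%, 0.40%, 1.47% and 1.56%, and in 3′UTRs 0.41%, 0.52%, 0.75%, 1.04% and 1.74%. A region listed in more libraries was also searched against more lists of miRNAs, and the other strand and the 3′UTR regions were searched in the same way.

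**Figure D3:**
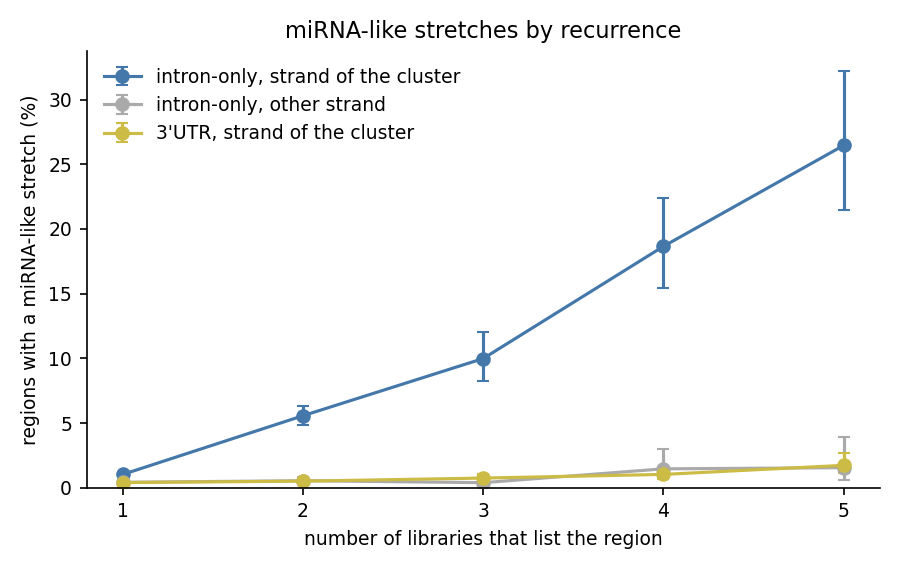
Share of regions with a miRNA-like stretch, in percent with Wilson 95% intervals, against the number of libraries that list the region, for intron-only regions on their own strand and on the other strand and for 3′UTR regions. The intron-only share on its own strand rises from 1.03% to 26.5%, and the other lines stay at or below 1.74%.

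Of the 257 regions in all 5 libraries, 52 held at least 12 consecutive bases of a miRNA, 23 lay in repeats, 20 overlapped an exon of the reference and 7 held other small RNA sequence, mostly tRNA. The other 155 belonged to none of these classes, which did not include ribosomal RNA in full, since the reference used here holds only a part of 28S rRNA. Of the 155, 13 held a stretch by the wider definition, that in Hoxa3 among them. The 10 regions with the highest geometric mean of scaled reads were taken from these. The first, in the transcript 4930593A02Rik, had 161278, 67038, 40329, 22802 and 36815 reads, the highest intron-only read number of each library. The next, in Eif2a, a translation initiation factor, had 69912, 33005, 13981, 5280 and 642 reads. Both hold the 16 bases of miR-142a-3p shown above. Scaled to a total of 1000000 read numbers per library, the Eif2a region had 1569, 2002, 1077, 320.02 and 25.8, highest at e15.5 and lowest in Adult. That in Tns3, a focal adhesion protein, with 13 bases, had 14503, 5708, 3443, 725 and 583 reads.

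The region in Hoxa3, a homeobox gene, whose sequence is the one close to miR-16-5p, had 3206, 1451, 1403 and 1930 reads up to P7 and 12998 in Adult. It scored 1.0 for conservation. That in Dhx35, an RNA helicase gene, with 12 bases of miR-122-5p, had 1179, 1237, 1542, 2140 and 2859 reads. On the scaled measure this was 26.5, 75.04, 118.8, 129.7 and 114.9, lowest at e12.5 and highest at P7. The region in Arid5b, a DNA-binding protein gene, had no such stretch and changed most of the 10, with 32750, 11542 and 28250 reads before birth and 94 and 45 after it.

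Other regions among the 10 had wide spans. Cdk8, a kinase of the Mediator complex, had 12899, 1800, 2603, 5744 and 5827 reads over 359 bases. Cmss1 had 5251, 2730, 1493, 3904 and 4529 over 549 bases. Gphn, the gephyrin gene, had 4456, 3761, 1250, 2627 and 2014 over 302 bases. A typical intron-only cluster spans 9 to 14 bases of listed sites. Of the 257 regions 42 spanned 60 bases or more, and 21 of these shared at least 20 identical bases with another of the 42. Cmss1 (with Kcnip1 and Spata5) and Gphn (with Wdr92 and Zfp185) were among the 21, and Cdk8 was not. Reads that fall within such shared bases cannot be told apart by gene.

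**Figure D4:**
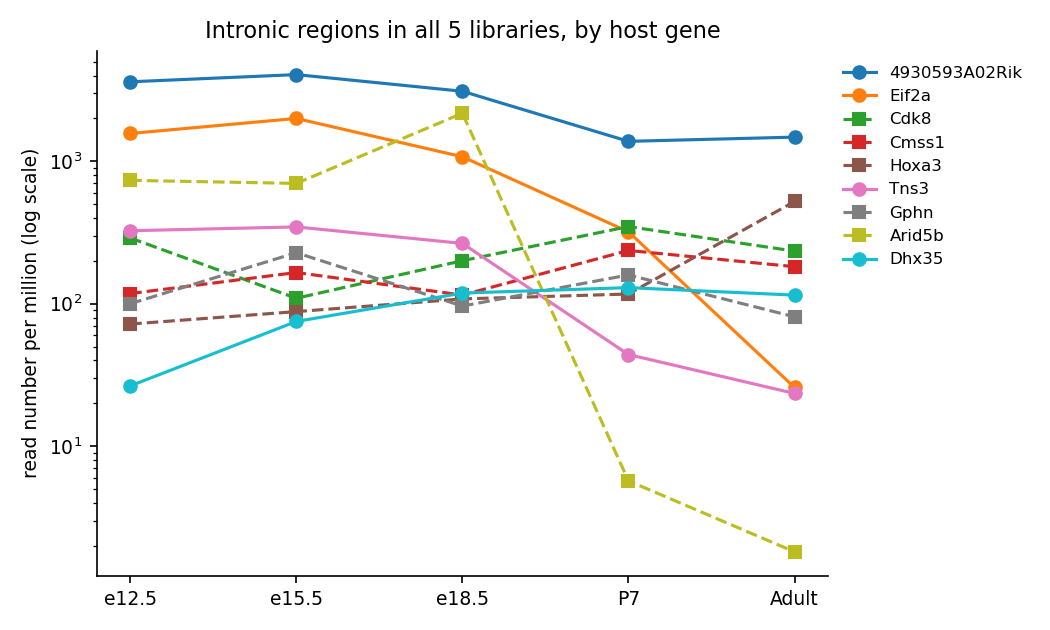
Read number scaled to a total of 1000000 summed read numbers in each library, on a log scale, at the 5 stages for intronic regions in all 5 libraries, from the 10 with the highest geometric mean, named by host gene. Solid lines are regions with at least 12 consecutive bases of a miRNA; the region of 4930593A02Rik is highest throughout, and that of Arid5b falls from 2176 at e18.5 to 5.70 at P7.

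Beside these, some recurring regions held a full 8mer site of a family on the fixed list of miRNAs used for naming. Of 734 regions in 4 or 5 libraries, 453 held no miRNA-like stretch, small RNA, exon or repeat. Of those, 21 had an 8mer of a family on that list. Sites of other families, such as miR-3068-5p and let-7j, were not counted, so recurring regions with any 8mer may be more. Whether 21 is few or many beside all intron-only clusters was not tested. For 16 of the 21 the 8mer itself was listed in at least 4 libraries, and for the others, in Asxl2, Arfip1, Npffr2, Cdk1 and Pilrb2, in 1 to 3. The site for miR-92a-3p in Zzef1 was in all 5 libraries with 316, 236, 116, 86 and 9 reads and a conservation score of 1.0. The site for miR-486a-5p in Ntm, a neuronal adhesion protein, had 85, 23, 42, 68 and 519 reads, with the highest number in Adult. Sites in all 5 libraries were also listed for miR-144-3p in Pcbp3, miR-101a-3p in Spata13, miR-30a-5p in Cdk5rap2 and miR-194-5p in Rc3h1.

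Several recurring sites belonged to miR-451a, a miRNA of red cell precursors. That in Picalm, a clathrin assembly protein needed for transferrin uptake, had 3918, 1378, 328 and 15 reads from e12.5 to P7. That in Sox6, a transcription factor of red cell maturation, had 593, 103, 119 and 71, that in Atf1 236, 936, 7 and 5, and that in Slc22a23, with a conservation score of 1.0, 69, 207, 8 and 28. None of the 4 regions was listed in Adult, where a cluster needs 5 reads to be listed. Outside this family, Afp, the fetal albumin gene, had a miR-26a-5p site with 139, 101, 92 and 40 reads, and Ermap, an erythroblast membrane protein gene, a let-7c-5p site with 264, 63, 6 and 87. Neither was listed in Adult.

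Seed families were then compared between e12.5 and Adult by the share of intron-only clusters with a site. Of 842 families with any cluster, 221 had at least 50 in both libraries, and of these 33 (14.9%) were 2-fold or more higher in Adult and none (0.0%) was 2-fold lower. The count of higher families fell under some other settings, given in the closing section. The minimum of 50 is harder to reach in Adult, which has fewer clusters, so it leaves out families that were far lower there, such as miR-451a, and with a minimum of 20 there were 3 lower. No test was possible with 1 library each. In 3′UTR clusters the same families gave 8 higher (3.62%) and 0 lower (0.0%). The log2 ratios ran from -0.77 to 3.61 with a median of 0.25.

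The let-7c-5p family, miRNAs of differentiated cells, had sites in 0.34% (Wilson interval 0.29 to 0.40%), 0.38%, 0.75%, 2.38% and 2.88% (2.58 to 3.204%) of intron-only clusters. This log2 ratio of 3.07 stood beside 1.55 in 3′UTRs. The let-7c-5p family's share of the miRNA numbers was 2.45%, 3.61%, 5.72%, 15.3% and 22.4%. Not every family paired in this way. The share of miR-144-3p in the miRNA numbers had a log2 ratio of -3.82, and that of miR-101a-3p one of 4.47, where the ratios of their sites were 0.32 and 0.27. Over the 221 families, which share both libraries, the Spearman correlation between both ratios was 0.03. The miR-30a-5p family had 0.35%, 0.82%, 0.84%, 2.20% and 1.76% (log2 ratio 2.35). The miR-26a-5p family had 0.78%, 1.52%, 1.84%, 2.38% and 2.12% (log2 ratio 1.44), and miR-194-5p, a liver and gut miRNA, had 0.36%, 0.60%, 0.72%, 1.10% and 1.25% (log2 ratio 1.79). The miR-29a-3p family, which targets collagen mRNAs, had 1.05%, 0.97%, 0.996% and 0.95% up to P7 and 2.79% in Adult (log2 ratio 1.41). These 5 were the families among the 20 listed ones that had enough clusters and passed 2-fold, all of them higher in Adult.

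The families of blood cell miRNAs did not fall together. That of miR-451a had 1.34%, 4.50% (Wilson interval 4.104 to 4.93%), 1.47%, 0.58% and 0.20% (0.13 to 0.30%). It had 22 clusters in Adult, below the minimum of 50, so it was not among the 221, and its log2 ratio was -2.76. The miR-144-3p family, made from the same transcript as miR-451a, had 1.02%, 3.04%, 1.41%, 1.41% and 1.27%, with the same peak at e15.5 and no 2-fold difference between e12.5 and Adult. The miR-101a-3p family, whose seed shares 6 bases with that of miR-144-3p so that a site can be listed under both, had 1.14%, 3.21%, 1.57%, 1.49% and 1.38%. The miR-142a-3p family, which had the most reads on stretches of its own sequence at every stage but Adult, had sites in only 0.33%, 0.58%, 0.57%, 0.61% and 0.49% of clusters. The miR-16-5p family had 2.24%, 3.70%, 2.87%, 3.36% and 3.01%, and miR-136-5p had 0.70% in Adult after 1.0004% at e12.5.

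Among the families outside the list, miR-3068-5p had the highest ratio, from 0.67% to 8.14% (log2 3.61), followed by let-7j, miR-3057-5p, miR-1839-5p and miR-196a-5p. The seed of miR-3068-5p shares 6 bases with miR-122-5p, and those of let-7j, miR-1839-5p and miR-196a-5p share 6 with let-7, so 1 site can be listed under several families. The 5 tested families that share such a run with let-7, miR-30 or miR-122-5p, which are these 4 and miR-30f, were all among the 33. At the other end were miR-329-3p, miR-8114, miR-324-3p, miR-361-3p and miR-7018-3p, none lower by more than a log2 ratio of -0.77.

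Host genes numbered 9593, 5142, 5276, 7045 and 5119, and 13112 in all, of which 94.1% were matched to the annotation by symbol. At e12.5 the 20 hosts with the most clusters held 10.4% of the host listings, and 3.42% to 5.58% at the other stages. The largest at e12.5 was Gm20388, a readthrough transcript of 4431 kb of intron on chromosome 8, with 667, 43, 31, 73 and 38 clusters. It spans other genes, and 295 of the 667 were also listed under Gse1, 155 under Zfpm1 and 65 under Galnt2. Gm28049 had 638, 83, 23, 19 and 6. St6galnac3, a sialyltransferase gene, had 373, 26, 23, 12 and 7, and Cmip had 267, 2, 10, 29 and 14. Fgfr2, a fibroblast growth factor receptor, had 180, 33, 23, 46 and 31, and March3, listed under the symbol 3-Mar, had 194, 41, 21, 11 and 0, all 267 of them inside March3. These hosts were chosen by their number of clusters, to which e12.5 adds the most.

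Slc25a37 encodes mitoferrin, the iron importer of red cell mitochondria, and had 311, 42, 12, 9 and 3 clusters. At e12.5, 296 of the 311 clusters had an identical window of 50 bases in a cluster of another gene, so the reads of the copies cannot be told apart. Per 100 kb of its introns, the number of Slc25a37 clusters at e12.5 was 835. On the same scale it was 136 for Cmip, 72.0 for St6galnac3 and 6.10 for Fgfr2. Without the clusters that have a copy in another gene, Slc25a37 had 15 clusters, or 40.3 per 100 kb, below Cmip and St6galnac3. Over all hosts, clusters with such a copy made up 3.01%, 2.68%, 1.62%, 1.19% and 1.31%.

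Between e12.5 and Adult, 1287 hosts had at least 10 clusters over both libraries, and as a share of intron-only clusters 239 (18.6%) were 2-fold or more higher in Adult and 380 (29.5%) lower. Both counts moved under some other settings, given in the closing section. A host at 0 in a library was set to a floor of 3 clusters in that library, which gives a bound, and 178 of the hosts were at 0 in Adult. With 1 library a stage these are differences between libraries, and in whole liver fewer cells of a type and less RNA per cell cannot be told apart. Among the 223 hosts with at least 30 clusters, 15 (6.73%) were higher and 131 (58.7%) lower. Both minimums are on clusters of e12.5 and Adult together, which come mostly from e12.5, so the higher minimum favours hosts that are lower in Adult.

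The hosts with the lowest ratios in Adult included genes of red cell formation. Because a host at 0 is set to 3 clusters and a host at 1 is not, a host without a cluster in Adult can rank behind one with 1 by construction, and none without is named here. Zfpm1, the GATA1 cofactor FOG1, had 155, 2, 0, 2 and 1 clusters, a log2 ratio of -5.31 (exact 95% interval -10.6 to -2.81). Ank1, the ankyrin of the red cell membrane, had 128, 13, 2, 9 and 1 (-5.03, -10.3 to -2.53), and Chst11, a chondroitin sulfotransferase, had 143, 4, 1, 2 and 1 (-5.19, -10.5 to -2.69). Gse1 had 295, 9, 4, 16 and 3 clusters. All clusters of Zfpm1 and Gse1 were also listed under Gm20388, so without clusters under several genes neither has a ratio. Galnt10 had 130, 7, 3, 3 and 2 clusters, and Nol4l 68, 2, 2, 5 and 1. Of these, only Ank1 had more than 10 clusters in any library after e12.5, apart from the 16 of Gse1 at P7. The others on this side were Gm28049 (-4.76) and Slc25a37 (-4.73). Without clusters that have an identical copy Slc25a37 had 15 clusters at e12.5 and none in Adult, too few for a ratio that does not rest on the floor.

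The hosts that were highest in Adult included metabolic genes of hepatocytes. Ass1, the argininosuccinate synthase of the urea cycle, had 3, 2, 4, 4 and 27 clusters, a log2 ratio of 5.14 (exact interval 3.44 to 7.50). Dpyd, which degrades pyrimidines, had 8, 3, 8, 24 and 46 (4.49), and Ghr, the growth hormone receptor, had 9, 5, 5, 21 and 29 (3.66). Adk, adenosine kinase, had 21, 7, 17, 20 and 64 (3.58, 2.85 to 4.36). Of the transcription factor genes, Zbtb16 had 5, 1, 10, 4 and 29 (4.51) and Zbtb20, a repressor of Afp, 14, 4, 5, 19 and 24 (2.75). Camk1d had 19, 5, 7, 17 and 34 (2.81) and Macrod1 17, 3, 5, 7 and 20 (2.20). All 8 were chosen by their ratio of Adult to e12.5, so a higher number in Adult than at e12.5 follows from the choice. None had more clusters at e15.5, e18.5 or P7 than in Adult. By summed reads Camk1d was at 0.80, below 2-fold.

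Lists of genes were counted whole, and their counts stand beside 18.6% higher and 29.5% lower over all 1287 hosts, or 6.73% and 58.7% over those with at least 30 clusters. A gene can reach the minimum of 10 clusters through the library where it is high, so these counts are partly set by the minimum. Of 26 genes of hepatocyte secretion and metabolism, 23 had an intron-only cluster at some stage, with 43, 21, 54, 103 and 135 clusters in all, or 9.87, 21.7, 57.8, 61.1 and 121 per 10000 intron-only clusters. Of the 7 with enough clusters, 6 were 2-fold or more higher in Adult and none lower (median log2 4.14, against -0.15 over all 1287 hosts). They included Ass1, Cps1, the first enzyme of the urea cycle (2, 0, 2, 6 and 23), the complement gene C3 (1, 0, 4, 5 and 9), Alb, albumin (4, 5, 9, 5 and 11), and the transcription factor gene Hnf4a (9, 0, 0, 5 and 7). Afp, which was not among them, had 10, 5, 2, 5 and 0 clusters. Ass1, Cps1, C3 and Alb passed the minimum of 10 only with their Adult clusters. In Adult, Alb had 82.3 clusters per 100 kb of intron, Ass1 56.2, C3 47.3 and Cps1 22.4.

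Of 22 erythroid genes 18 had a cluster, with 796, 135, 43, 45 and 16 clusters, or 183, 140, 46.1, 26.7 and 14.4 per 10000. Of 9 with enough clusters, 7 were 2-fold or more lower in Adult and none higher, beside 29.5% lower over all hosts tested and 58.7% over those with at least 30 clusters (median log2 -2.26, with genes at 0 at their bound). Beside Ank1 and Slc25a37 these were Sptb, the spectrin of red cells (100, 15, 5, 4 and 0; a log2 ratio of -3.09 as a bound), Epb4.1, protein 4.1 (113, 22, 10, 6 and 6), Bcl11a, a repressor of fetal globin (58, 5, 2, 2 and 1), the anion exchanger gene Slc4a1 (11, 2, 0, 1 and 1) and the blood group gene Kel (10, 6, 5, 4 and 1). All 7 reached the minimum of 10 with their e12.5 clusters alone. Without Slc25a37 the list had 485, 93, 31, 36 and 13 clusters, and 6 of 8 were lower. The counting intervals of Slc4a1 (-6.92 to 1.29) and Kel (-6.79 to 1.46) included no difference, as did that of Hnf4a (-0.05 to 3.201) in the hepatocyte list.

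Other blood cell genes were mixed. All 12 had a cluster, with 106, 31, 21, 42 and 25 in all, or 24.3, 32.1, 22.5, 24.9 and 22.5 per 10000. Of 5 with enough clusters, Dock2, a factor of lymphocyte migration (6, 2, 3, 3 and 7), was higher in Adult, and Runx1, a factor of blood stem cells (48, 11, 4, 6 and 3), and Ikzf1, a lymphoid factor (20, 1, 1, 1 and 1), were lower. Of 13 genes of fetal growth 12 had a cluster, with 190, 30, 39, 42 and 6 in all, or 43.6, 31.0, 41.8, 24.9 and 5.39 per 10000. Of 6 with enough clusters, 3 were 2-fold or more lower in Adult and none higher, a share of lower hosts that lies between the 29.5% and the 58.7% over all hosts by the lower and the higher minimum. These were Igf1r, the receptor for insulin-like growth factors (76, 6, 4, 12 and 2), Grb10, an imprinted growth inhibitor (32, 10, 19, 8 and 1), and the glypican gene Gpc3 (24, 4, 7, 6 and 1). The counting intervals of Ikzf1 (-7.72 to 0.29) and Gpc3 (-7.98 to 0.00) reached or passed 0. Of 20 genes of SR proteins, their kinases and others known for retained introns, 18 had a cluster, with 35, 7, 3, 14 and 6 in all, and none had enough for the comparison.

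**Figure D5:**
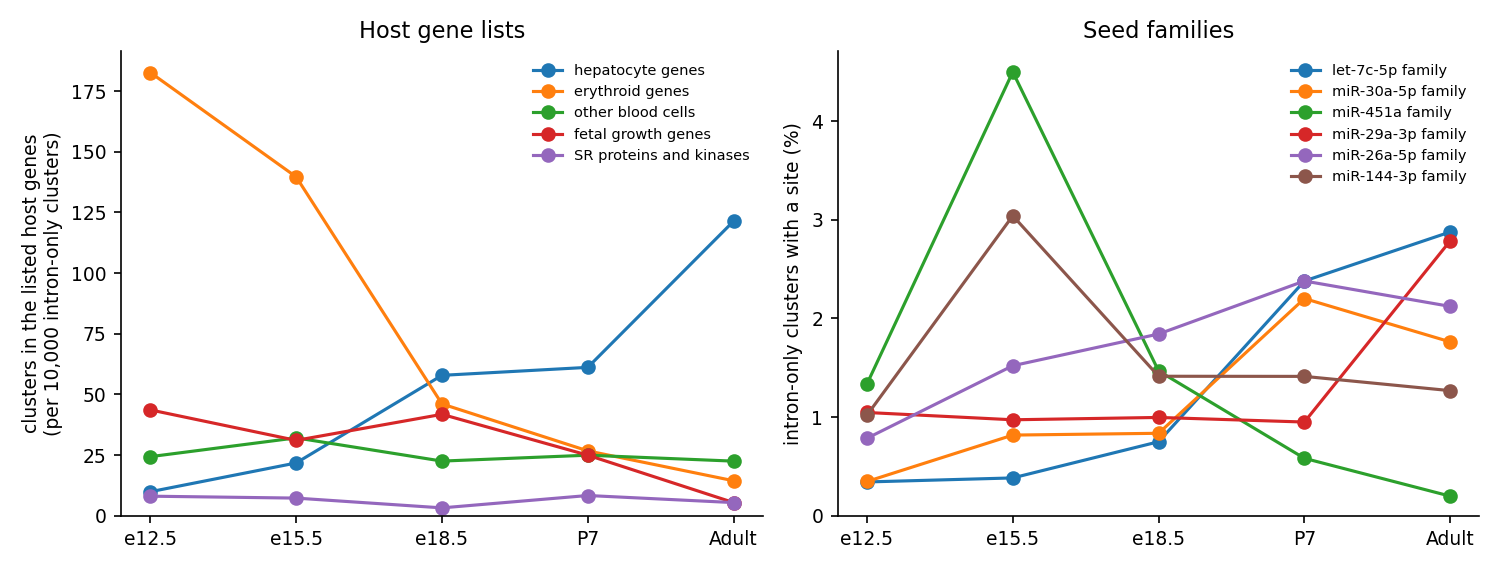
Left, intron-only clusters in 5 lists of host genes per 10000 intron-only clusters, by library. Right, share of intron-only clusters with a site of 6 seed families, in percent; the erythroid list runs from 183 to 14.4 and the hepatocyte list from 9.87 to 121, while miR-451a peaks at 4.50% at e15.5 and let-7c-5p is highest in Adult at 2.88%.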

How the data were processed

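The data were 5 deposited tables of miRNA-target pairs from Ago HITS-CLIP, each holding the liver of a single stage as labelled. The authors preprocessed reads with the FASTX-Toolkit, used Bowtie for mapping to mm10 and miRBase v19 precursors (versions not given in the sources used here; the submitters' processing notes also name mm9), grouped overlapping reads into clusters, annotated them with UCSC refGene and Ensembl and searched for seed matches. Biological replicates are named in the methods for Ago2, and the supplement lists a further e18.5 library apart. That library has no sample here, and whether its sites are in the e18.5 table is not stated. The authors' read values are a signal, namely whole numbers of at least 5 giving the highest read number, not scaled to library size. The deposited conservation value is a score from 0 to 1 of unstated method, and the deposited free energy score was not used.

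Clusters of the 2 lists in each embryonic table were joined where they overlapped on the same strand, and their reads were added. A 3′UTR cluster had any entry listed in a 3′UTR. Coordinates are 1-based on GRCm38, and genes and exons are from GENCODE M21. A cluster was called a repeat when more than 0.5 of the 50 bases centred on it were lower-case in the reference. Shares have Wilson 95% intervals and host ratios exact binomial ones. Host genes and families were named by rule: the 8 hosts with the most clusters, the 8 with the largest ratio each way among those with 30 clusters or more, fixed gene lists, the 10 regions in all libraries with the highest geometric mean of scaled reads, 20 listed miRNAs and the 5 other families with the largest ratio each way. Some genes that the rule names are not reported here. The members and lists were chosen with earlier results of these data known. The searches for miRNA stretches, wide regions and recurring 8mers, the erythroid list without Slc25a37, and the alternatives on stretches, small RNAs, single positions, identical copies and extended spans were chosen after seeing the data. Other alternatives were the read minimum, the lists apart, cluster definition, exons, seed length, family minimum, summed reads, ambiguous hosts, overlap and each library left out. The procedures were tested on simulated data. Python 3.11.15, numpy 2.4.6, pandas 2.3.3, scipy 1.17.1, pysam 0.24.0 and matplotlib 3.10.9 were used.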

Additional observations from a re-analysis of the deposited data

How the results depend on the processing

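The e12.5 share of 20.9% became 25.1% and 17.7% in the first and second list alone, 20.3% without clusters over exons of the reference, 20.6% with an equal number of clusters per library and 20.7% without miRNA stretches and small RNAs. The mean share of the 4 later libraries, 12.8%, became 11.97% and 10.2% with at least 10 and 20 reads, 13.04% and 11.97% in the first and second list, 12.3% both without exons and with equal numbers, and 12.53% without stretches and small RNAs. Under all of these e12.5 stayed above every later library. With at least 20 reads, hosts higher in Adult numbered 77 and lower 145, and regions in all 5 and in 2 or more libraries 123 and 2168. In the first list alone these were 136, 226, 103 and 2953, and families higher and lower numbered 17 and 1. Families higher numbered 21 with sites of at least 7 bases, and 3 were lower with a minimum of 20 clusters a family. By summed reads 628 hosts were lower. The cause of these changes was not tested. Fewer clusters or families enter under the read and list settings. Without clusters under several genes the ratio of Gm20388 was -0.55, below 2-fold. The differences from 3′UTR clusters in median reads, 8mers, matches of at least 7 bases, conservation, abundant families, repeats and recurrence kept their sign under the alternatives run for each. No paired analysis was possible because each stage has 1 library, as far as stages are compared; intron-only and 3′UTR clusters were compared within each library. Clusters without a seed match are not listed, so library depth cannot be read from the listed sites. The paper's supplement gives total reads, with more for e12.5 than for the later stages, apart from a further e18.5 library. How those reads relate to the separate lists is not stated. A region not listed may have had up to 4 reads.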
